A study of Mus musculus with 18 samples.

Results

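Collagens are the chains that wind by threes into the triple helices of the extracellular matrix. The members were all genes with a platform symbol made of Col, a number, a and a number, such as Col1a1, read from probe sets that carry exactly 1 symbol. The rule found 42 genes on 82 probe sets, of 18193 genes on the array, and each gene is represented by the probe set with the highest mean signal over all 18 arrays. Of the 42 genes, 31 lay at or above the filter on low values, and these were tested among 13070 genes. The arrays measured RNA of whole brains from 8-week-old C57BL/6 mice, female and male. The groups were wild type mice, mice labelled ERalphaKO and mice labelled ERbetaKO, whose labels name the estrogen receptor alpha or beta gene as the target. There were 6 arrays of each genotype, 3 from females and 3 from males. The labels name no allele, promoter or Cre line, and they number the samples of a group without saying that those were separate animals. The p-values therefore take in only the spread among these samples, part of which may be technical.

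A collagen molecule is built inside the cell, where prolines and lysines of its chains are hydroxylated and the chains folded, and it is trimmed and crosslinked after secretion. Fibrillar chains such as those of collagen I and III form rope-like fibrils in connective tissue. Collagen IV forms the mesh of basement membranes, collagen VI forms beaded filaments, and the fibril-associated, multiplexin and transmembrane chains decorate fibrils, basement membranes or cell surfaces. Brain tissue itself has little fibrillar collagen. The known sites of fibrillar collagen at the brain are the meninges and the walls of larger vessels, and collagen IV surrounds the brain's vessels.

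The signals are linear intensities, and the log2 scale used below is log2(signal + 63.63). On this scale the levels of the genes tested correlated at 0.932 to 0.983 between arrays. The targeted genes were examined first. Esr2, the gene of estrogen receptor beta, had a signal of 28.7 ± 11.4 (SD, n = 6) in wild type arrays, 33.2 ± 22.6 under the ERalphaKO label and 271 ± 98.0 under the ERbetaKO label, which runs against the label. Esr1, the gene of estrogen receptor alpha, had 143 ± 35.9 in wild type arrays and 129 ± 21.6 under the ERalphaKO label. The position of these probe sets relative to a deleted part was not given in the sources used here, so each direction below rests on the labels alone. The cerebellar marker Pcp2 reached a signal of 500 on 11 of the 18 arrays and spanned 117 to 10790 over all of them. The 3′ to 5′ signal ratio of the Actb control probe sets, a measure of RNA integrity and labelling, ran from 1.17 to 1.23 on the wild type arrays, from 1.15 to 1.37 under the ERalphaKO label and from 1.34 to 1.84 under the ERbetaKO label.

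The chains with the highest signals were those of beaded filaments, basement membranes and collagen I. Col6a1 and Col6a2, which assemble with a further chain into collagen VI, had means of 1029 and 978 over the 18 arrays. They were followed by Col4a1, a ubiquitous basement membrane chain, at 826 and by Col1a2, a chain of collagen I, at 751. Next were Col4a2 at 634, Col27a1 at 585, Col25a1 at 568, Col5a3 at 472, Col19a1 at 451 and Col5a1 at 440. Col25a1 encodes a transmembrane collagen of neurons, and Col19a1 a minor chain also made by neurons. The signal of a probe set depends on its probes, so this order does not rank the transcripts by amount. At the other end, Col17a1, Col10a1 and Col9a2 had means of 19.5, 21.2 and 23.4, below the pseudocount. At the filter, Col13a1 lay just inside with a mean log2 level of 7.591, and Col26a1 and Col22a1 lay just outside with 7.541 and 7.539.

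The spread from array to array differed widely between chains. Col1a1, the main chain of collagen I, ran from 28.2 to 1059, a 37.6-fold range. Col3a1, which forms collagen III in vessel walls and connective tissue, ran from 119.9 to 1089, and Col1a2 from 406 to 2019. All 3 had their highest value on ERbetaKO female replicate 2. Their lowest values were on different arrays, ERbetaKO male replicate 3 for Col1a1, wild type male replicate 3 for Col3a1 and ERbetaKO female replicate 3 for Col1a2. Col11a1, a minor fibril chain, kept within 228 to 319, a 1.40-fold range, and Col4a1 within 628 to 1017.

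**Figure D1:**
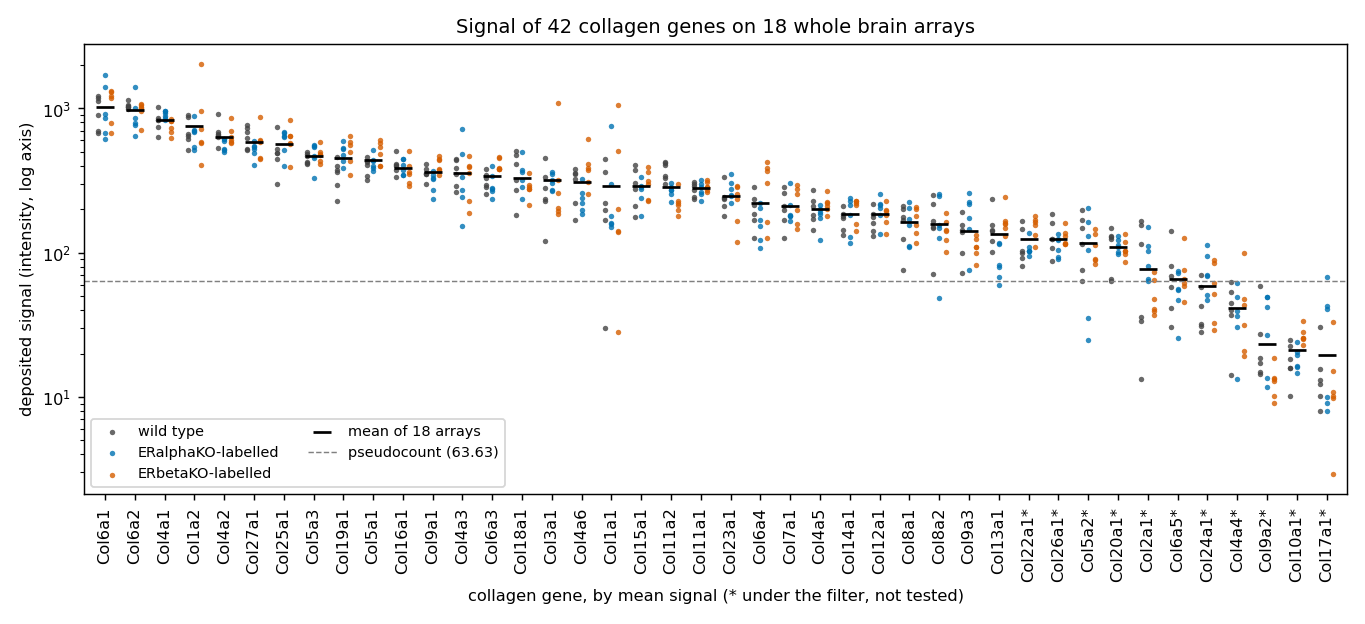
Signal of each of the 42 collagen genes on each of the 18 arrays (log axis), with dots coloured by genotype and a bar at the mean. The dashed line is the pseudocount of 63.63 and a star marks the 11 genes under the filter on low values. Col1a1 spreads from 28.2 to 1059 and Col11a1 only from 228 to 319.

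In ERalphaKO-labelled brains, 2 of the 31 tested collagen genes fell against wild type and 0 rose (limma, Benjamini-Hochberg adjusted p under 0.05). Over all genes tested, 3.63% fell and 3.08% rose, so the members' counts of 2 and 0 are close to the background. At an unadjusted p under 0.05 there were 4 of 31 collagen genes, against 23.3% of all genes. The genes that fell were Col11a2, a chain of the fibrillar collagen XI known from cartilage and the inner ear, and Col13a1, a transmembrane collagen of neuromuscular synapses and other adhesion sites. In these whole brain samples, fewer cells of a type and less RNA per cell cannot be told apart.

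Col11a2 had a lowest, median and highest signal of 300.2, 371 and 429 over the 6 wild type arrays and of 224, 272 and 306 over the 6 arrays labelled ERalphaKO. The groups overlapped only at their ends, where the highest ERalphaKO-labelled value passed the lowest wild type value. The log2 difference was -0.37 ± 0.10 (SE, adjusted p = 0.0394 with limma). Col13a1 had 101, 143 and 236 in wild type brains and 59.3, 81.2 and 117 in those labelled ERalphaKO, so only 1 wild type array, the one at 101, lay among the ERalphaKO-labelled ones. Its log2 difference was -0.49 ± 0.14 (adjusted p = 0.0464 with limma). Col13a1 lay under the filter and was not tested when only the wild type and ERalphaKO-labelled arrays were fitted. Its entry to the test thus rested on the ERbetaKO-labelled arrays. Neither gene passed with a replicate block (adjusted p 0.0545 and 0.0508) or after adding the Actb ratio to the model. Leaving out 1 array ended the Col11a2 call for 10 of 18 arrays, 4 wild type and all 6 ERalphaKO-labelled ones, with adjusted p up to 0.0873, and the Col13a1 call in 9 of the 14 such fits in which it met the filter (3 wild type, 4 ERalphaKO- and 2 ERbetaKO-labelled), with adjusted p up to 0.11.

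The other chains did not pass. Col19a1 had the highest difference, with 491 ± 75.6 against 353 ± 81.9 in wild type (SD, n = 6 each) and a log2 difference of 0.42 ± 0.14 (limma adjusted p = 0.0717), and it passed without ERbetaKO male replicate 3 (0.0324). The other probe sets of Col19a1 gave log2 differences of 0.10 and -0.08. Col24a1, a fibrillar chain under the filter, and Col9a3, a fibril-associated chain of cartilage, were the next highest, at log2 differences of 0.36 and 0.30. Col27a1, a fibrillar chain of cartilage, had the next lowest value after the 2 genes that fell, at -0.27 (adjusted p = 0.257). Over all 42 chains without the filter the median log2 difference was -0.02, beside -0.04 for all genes. Among the 6 basement membrane chains, 5 lay below 0, with a median of -0.10, and 0 of the 5 tested passed in either direction. Col4a2 gave -0.25 (adjusted p = 0.196) and Col4a1 0.14, with 0.006 from another Col4a1 probe set.

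In ERbetaKO-labelled brains, 1 of the 31 tested collagen genes fell against wild type and 0 rose. Of all genes tested 4.61% fell and 2.9% rose, so these counts too are near or below the background. At an unadjusted p under 0.05 there were 5 of 31 collagen genes, against 25.4% of all genes. The gene was again Col11a2. Both comparisons share the wild type arrays, so the lower Col11a2 values in each are not independent of each other.

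Col11a2 had a lowest, median and highest signal of 181, 219 and 299.9 in ERbetaKO-labelled arrays, all under the lowest wild type value of 300.2. This was the only collagen gene whose 6 values lay wholly below the 6 wild type values, as did 2.44% of all genes tested. The log2 difference was -0.60 ± 0.10 (limma adjusted p = 0.00361), a 1.51-fold lower level on this scale. The call held in all 18 fits that left out 1 array. It was lost with the Actb ratio as a covariate, at -0.67 (adjusted p = 0.0686), and among the arrays with strong Pcp2, at -0.48 (adjusted p = 0.130). Col11a2 has a single probe set. Of 10 listed bone and cartilage markers 9 were measured, and 4 of these passed the filter. The 9 summed to 974 to 1547 on wild type, 957 to 1220 on ERalphaKO-labelled and 1035 to 1522 on ERbetaKO-labelled arrays. Col11a1, another chain of collagen XI, had means of 275, 275 and 288 in that order. Their part in the Col11a2 result was not tested.

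Col19a1 stood just short of the threshold, with 509 ± 109 against 353 ± 81.9 in wild type and a log2 difference of 0.46 ± 0.14 (limma adjusted p = 0.0507). Its other probe sets gave 0.49 and 0.27, and with array weights the gene passed, as it did without wild type male replicate 1, ERbetaKO female replicate 1 or ERbetaKO male replicate 3 (adjusted p 0.041, 0.0466 and 0.0117). Col6a4, a collagen VI chain, and Col4a6, a basement membrane chain of epithelia, had the next highest differences, 0.37 (adjusted p = 0.114) and 0.32 (adjusted p = 0.295), and Col6a4 passed without ERbetaKO male replicate 3 (0.0413). Col5a1, which regulates the width of collagen I fibrils, gave 0.29 (adjusted p = 0.0851). The lowest after Col11a2 were Col2a1, the main collagen of cartilage, at -0.28 and under the filter, and Col18a1, the basement membrane multiplexin that holds endostatin, at -0.24. The median of all 42 chains was 0.06, beside 0.02 for all genes. Scaling each array to its median moved the median difference of all genes tested from 0.01 to -0.12 and turned the 379 higher and 602 lower genes into 134 and 1744, while the collagen count stayed at 1.

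Col1a1, Col1a2 and Col3a1 showed no call in any genotype comparison. Col1a1 had 238 ± 148 (SD, n = 6) in wild type brains, 285 ± 239 under the ERalphaKO label and 346 ± 385 under the ERbetaKO label. Col1a2 had 701 ± 153, 675 ± 136 and 877 ± 589 in the same order. Col3a1 had 276 ± 114, 313 ± 39.9 and 375 ± 354. The large spread in the ERbetaKO-labelled group came with ERbetaKO female replicate 2, which was highest for all 3 genes. On that array the 10 skeletal muscle markers, of which only 3 passed the filter, summed to 3221, against 799 to 1637 on the other 17 arrays. The bone and cartilage markers summed to 1522 there, against 957 to 1547 elsewhere, and its Actb ratio of 1.84 was the highest of all arrays. The part of muscle, bone or RNA quality in these values was not tested. For each of the 3 genes the means differed between genotypes by less than the largest SD within a genotype. Col6a1 likewise did not pass, at 968 ± 244, 1035 ± 439 and 1083 ± 273, and Col25a1 had 500 ± 144, 594 ± 114 and 610 ± 143.

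**Figure D2:**
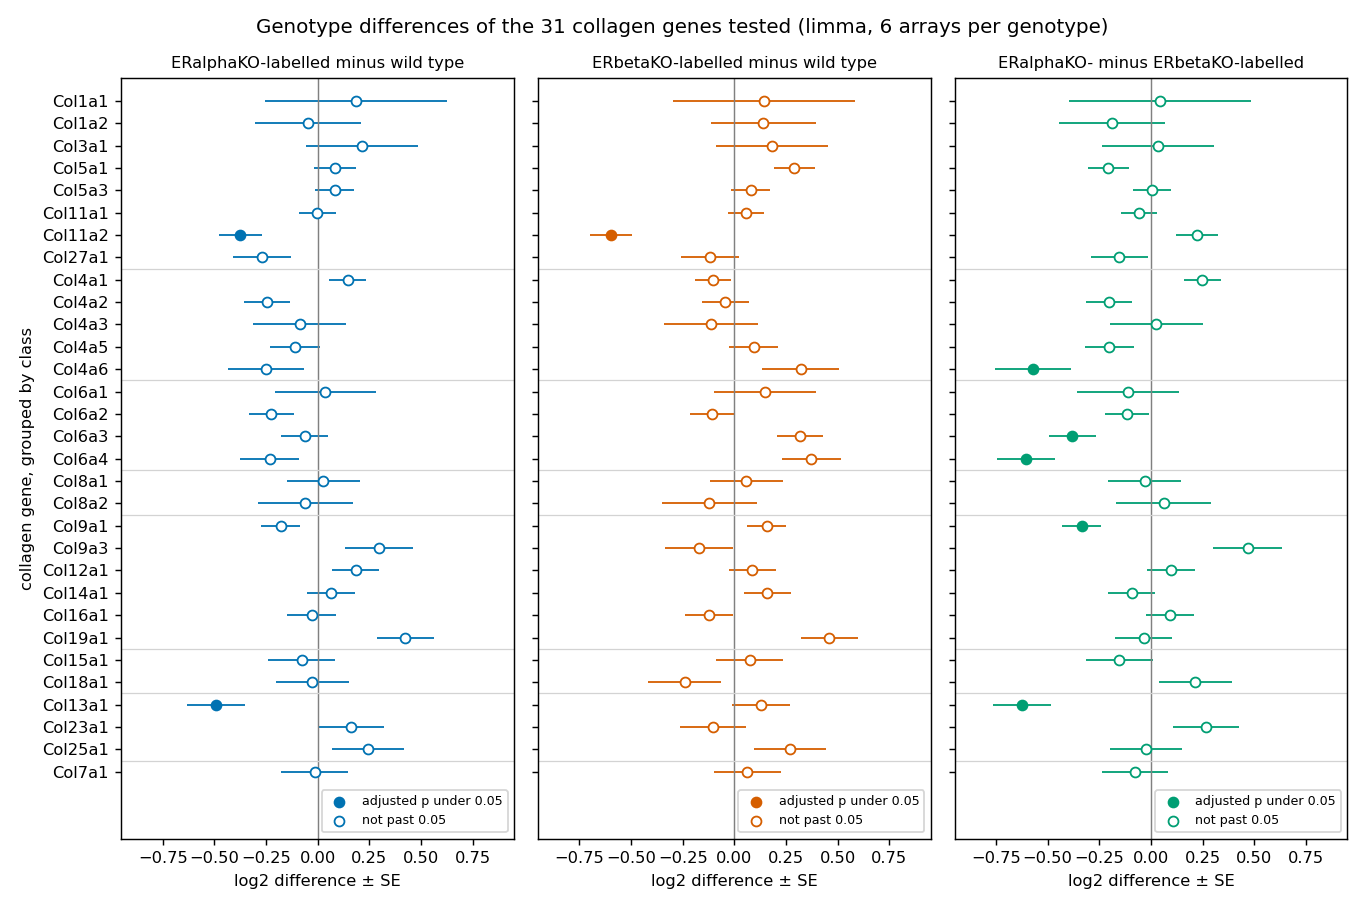
Log2 difference and its standard error for the 31 tested collagen genes, grouped by class, in the 3 genotype comparisons (limma, 6 arrays per genotype). Filled points passed an adjusted p of 0.05: 2 genes, 1 gene and 5 genes from left to right, all below 0.

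Between the knockout labels, 5 of the 31 tested collagen genes were lower in ERalphaKO- than in ERbetaKO-labelled brains and 0 were higher. Over all genes tested 9.1% were lower and 6.31% higher. Read against that background, 5 of 31 is above the share of all genes in one direction and 0 of 31 below it in the other. At an unadjusted p under 0.05, 8 of 31 collagen genes stood beside 32.1% of all genes. The 5 genes were Col13a1, 2 beaded filament chains (Col6a4 and Col6a3), the fibril-associated chain Col9a1 and the basement membrane chain Col4a6. This comparison uses the same arrays as those above, so its values are not further evidence for them.

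Col13a1 had lowest, median and highest signals of 59.3, 81.2 and 117 under the ERalphaKO label and of 130.4, 160.0 and 244 under the ERbetaKO label. The groups did not overlap, which was so for this collagen gene alone and for 3.57% of all genes tested in that direction. The log2 difference was -0.62 ± 0.14 (limma adjusted p = 0.0104), and the gene passed in all 14 of the left-out-array fits in which it met the filter. With only the arrays of the knockout labels fitted, it lay under the filter and was not tested.

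Col6a4 had 108, 160.4 and 220.1 under the ERalphaKO label and 126, 337 and 427 under the ERbetaKO label. The ERbetaKO-labelled values split by sex: the females had 427, 387 and 367 and the males 306, 162 and 126, so that 2 male arrays lay among the ERalphaKO-labelled ones. The log2 difference was -0.61 ± 0.14 (limma adjusted p = 0.0119), and it passed in all 18 fits that left out 1 array. Col6a4 encodes a chain that can take the place of Col6a3 in collagen VI.

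Col9a1, a chain of the collagen that coats cartilage fibrils, had 234, 325.5 and 367 against 343.5, 409.7 and 471. The groups met only between 343.5 and 367. The log2 difference was -0.34 ± 0.09 (limma adjusted p = 0.0266). Col6a3, the large chain of collagen VI, had 235, 279 and 399 against 378, 384 and 458, with 1 ERalphaKO-labelled array inside the upper group, and a log2 difference of -0.38 ± 0.11 (limma adjusted p = 0.0329). Col4a6 had 184, 231 and 324 against 254, 381 and 616, with clear overlap, and a log2 difference of -0.57 ± 0.19 (limma adjusted p = 0.0475). These 3 calls were near the threshold. Leaving out 1 array ended the Col9a1 call for 7 arrays (4 ERalphaKO- and 3 ERbetaKO-labelled; adjusted p up to 0.074), the Col6a3 call for 6 (4 and 2; up to 0.0772) and the Col4a6 call for 11 (5, 4 and 2 wild type arrays; up to 0.11).

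All 5 beaded filament chains lay below 0 in this comparison, with a median log2 difference of -0.19 beside -0.05 for all genes, and 2 of the 4 tested passed as lower. Of the 6 basement membrane chains 4 lay below 0, with a median of -0.12 and 1 call among the 5 tested. Col4a5 was among these 4, at -0.20. Another Col4a5 probe set gave 0.45 ± 0.13 and passed as higher when every probe set was tested (limma adjusted p = 0.026). The other way, Col2a1, Col9a3 and Col9a2 had the highest differences, 0.47, 0.47 (adjusted p = 0.0646) and 0.30. Col9a3 passed without ERalphaKO female replicate 2 or male replicate 3 (adjusted p 0.0386 and 0.0119). Col4a1 had 905 ± 55.8 against 755 ± 86.7 (log2 difference 0.25, limma adjusted p = 0.0657), and another Col4a1 probe set gave -0.05. Over all 42 chains the median was -0.05, as it was for all genes. The split into lower and higher genes depended on the scaling. With each array scaled to its median, 2 collagen genes were lower (Col13a1 and Col6a4) and 3 higher (Col11a2, Col4a1 and Col9a3), as the 825 higher and 1190 lower genes of the whole array became 1876 and 555.

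**Figure D3:**
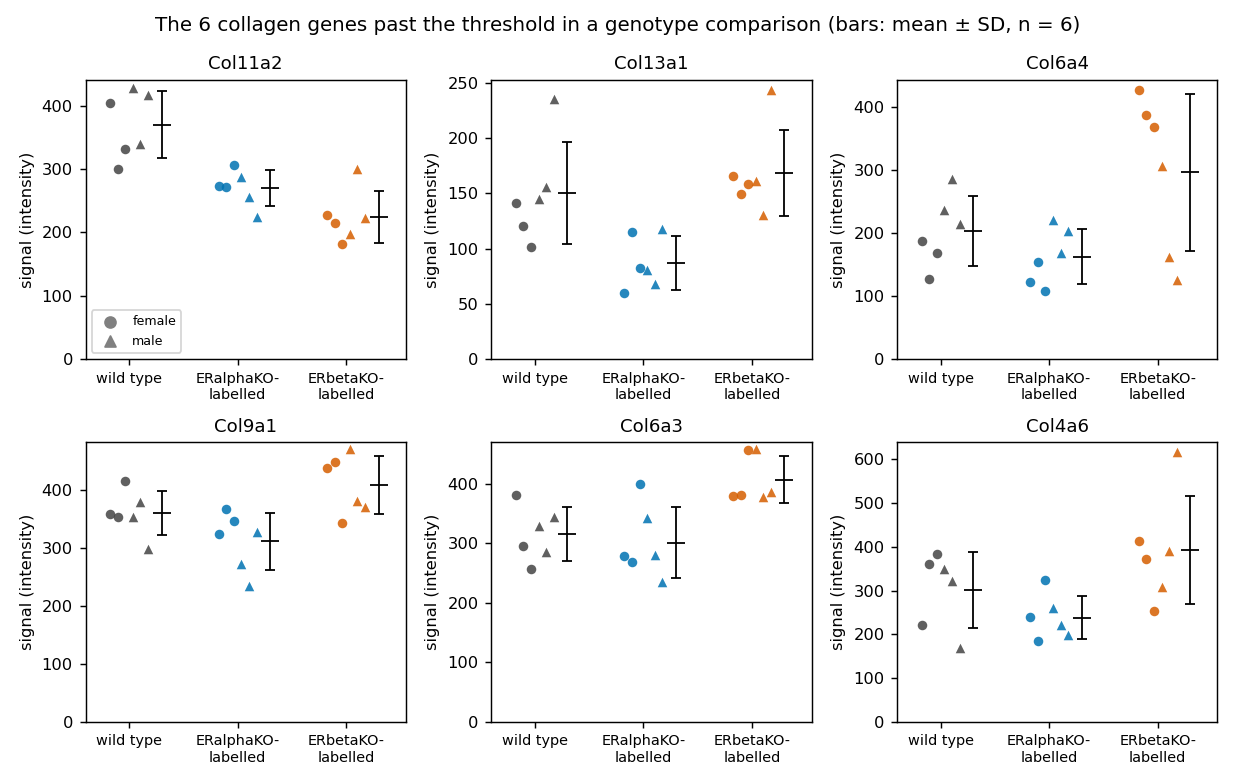
Signal on every array for the 6 collagen genes that passed in a genotype comparison, by genotype, with circles for females, triangles for males and the mean ± SD of 6 arrays; axes start at 0. All ERbetaKO-labelled Col11a2 values lie under the wild type values, and all ERalphaKO-labelled Col13a1 values lie under the ERbetaKO-labelled values.

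Markers of the cells that could carry collagen RNA were measured beside these genes. Of 31 leptomeningeal markers 25 passed the filter, and 0 were under the pseudocount on all arrays. The summed signal of all 31 ran from 28150 to 32210 on wild type arrays and from 25640 to 29880 under the ERalphaKO label. Under the ERbetaKO label it ran from 19370 to 30620. The strongest of them, such as Ptgds, Gjb6, Igfbp2, Igf2 and Fn1, are also made by other brain cells. As a mean log2 level the 25 that passed were 0.30 higher in ERalphaKO- than in ERbetaKO-labelled arrays (exact permutation p = 0.0303, adjusted p = 0.127 over 39 list comparisons). Of these 25, 6 were higher and 0 lower (limma), beside 6.31% and 9.1% of all genes. The 5 collagen genes called in that comparison were lower, a split that depended on the scaling as given above. All 12 mural cell markers, of which 10 passed, summed to 8341 to 9466, 9463 to 10860 and 8186 to 9710 in the same order of genotypes. Of these Cnn1 was under the pseudocount on all arrays. The 13 of 14 endothelial markers measured, all past the filter, summed to 11630 to 12870, 10600 to 12530 and 10340 to 11660. The part of these cell types in the genotype differences was not tested beyond the covariate: with the leptomeningeal level as a covariate Col9a1, Col4a6 and also Col1a2 (-0.80, limma adjusted p = 0.0260) passed between the knockout labels, and Col13a1 (-0.50), Col6a3 (-0.37) and Col6a4 (-0.59) did not (limma adjusted p 0.0845, 0.125 and 0.055). After adding the Actb ratio to the model only Col6a4 passed there, while Col13a1, Col6a3 and Col9a1 had differences of -0.67, -0.40 and -0.34 (limma adjusted p 0.0507, 0.128 and 0.121). The Actb ratio was 1.34 to 1.84 under the ERbetaKO label, 1.15 to 1.37 under the ERalphaKO label and 1.17 to 1.23 in wild type. It thus ran largely with the ERbetaKO label, and this fit cannot tell ratio and label apart. Over all genes tested, 825 higher and 1190 lower became 437 and 437 between the knockout labels with this ratio. Where a call was lost with either covariate, the difference was mostly close in size to that without the covariate. The exceptions were Col4a6, from -0.57 to -0.49 with the Actb ratio, and Col13a1, from -0.62 to -0.50 with the leptomeningeal level. Col1a2 moved from -0.19 to -0.80 with the leptomeningeal level. Another Col1a2 probe set lay on the other side, at 0.995 ± 0.42 without a covariate (limma adjusted p = 0.109). The median of the 31 tested chains moved from -0.06 to -0.21 with the leptomeningeal level and to 0.01 with the Actb ratio. None of the 39 list comparisons passed an adjusted p of 0.05 (lowest 0.0844 by exact permutation). The lowest p values were those of neuron markers, at -0.24 in ERalphaKO-labelled against wild type arrays (exact permutation p = 0.00217), and of astrocyte markers, at -0.36 in ERbetaKO-labelled against wild type arrays (p = 0.00433, exact). Endothelial and oligodendrocyte markers were at -0.14 and -0.31 in the latter comparison (exact permutation p = 0.00866 and 0.0152). Their part in the Col11a2 differences was not tested.

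Between the sexes, 0 of 31 collagen genes passed (limma), as did 0.0306% of all genes tested in either direction, and 2 of 31 had an unadjusted p under 0.05, beside 4.61% of all genes. The 2 were Col1a1 and Col12a1, a fibril-associated chain. Col1a1 had lowest, median and highest signals of 139, 302 and 1059 in the 9 female arrays and of 28.2, 158 and 447 in the 9 male arrays. The ranges overlapped between 139 and 447, and the log2 difference of female minus male was 1.00 ± 0.36 (limma adjusted p = 0.974). Col12a1 gave 0.22 ± 0.09, Col3a1 0.47 ± 0.22 and Col5a2, which is under the filter, 0.45 (limma adjusted p 0.958 to 0.974). The lowest differences were -0.32 for Col17a1, -0.17 for Col13a1 and -0.14 for Col7a1, the anchoring fibril chain of skin. Over all 42 chains, 31 (73.8%) had a higher female than male mean, beside 55.9% of all genes, and the median log2 difference was 0.09 beside 0.01. The leptomeningeal marker level was also higher on female arrays, at 0.08 ± 0.24 against -0.08 ± 0.19 (SD, n = 9 each). With it as a covariate the median of the 31 tested chains was 0.04, against 0.09 without it.

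No collagen gene passed for a knockout difference that depends on sex, and 0 of all 13070 genes did (limma). At an unadjusted p under 0.05 there were 2 collagen genes and 5.16% of all genes for the ERalphaKO label, and 1 and 3.4% for the ERbetaKO label. The latter was Col6a4. Its wild type females had 186, 127 and 168 and its wild type males 236, 285 and 214, the reverse of the order in ERbetaKO-labelled arrays. The interaction was 1.33 ± 0.28 on the log2 scale (limma unadjusted p = 0.000224, adjusted p = 0.9999). Without ERbetaKO male replicate 1 it passed, at 1.61 ± 0.22 (limma adjusted p = 0.0358).

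The chains were then compared by how they varied from array to array. Over the 465 pairs of the 31 tested genes Pearson's r ran from -0.68 to 0.80 with a median of 0.10, and 286 pairs were above 0. The arrays share scaling and genotype, so these values describe the set and carry no test. Only 5 pairs reached 0.7. They were Col1a1 with Col1a2 (0.80), Col1a2 with Col3a1 (0.77), Col1a1 with Col3a1 (0.72), Col6a1 with Col11a1 (0.73) and Col11a1 with Col12a1 (0.71). Most pairs of chains thus had r values spread around a low median. The 3 pairs among the collagen I and III chains were all in this small group.

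**Figure D4:**
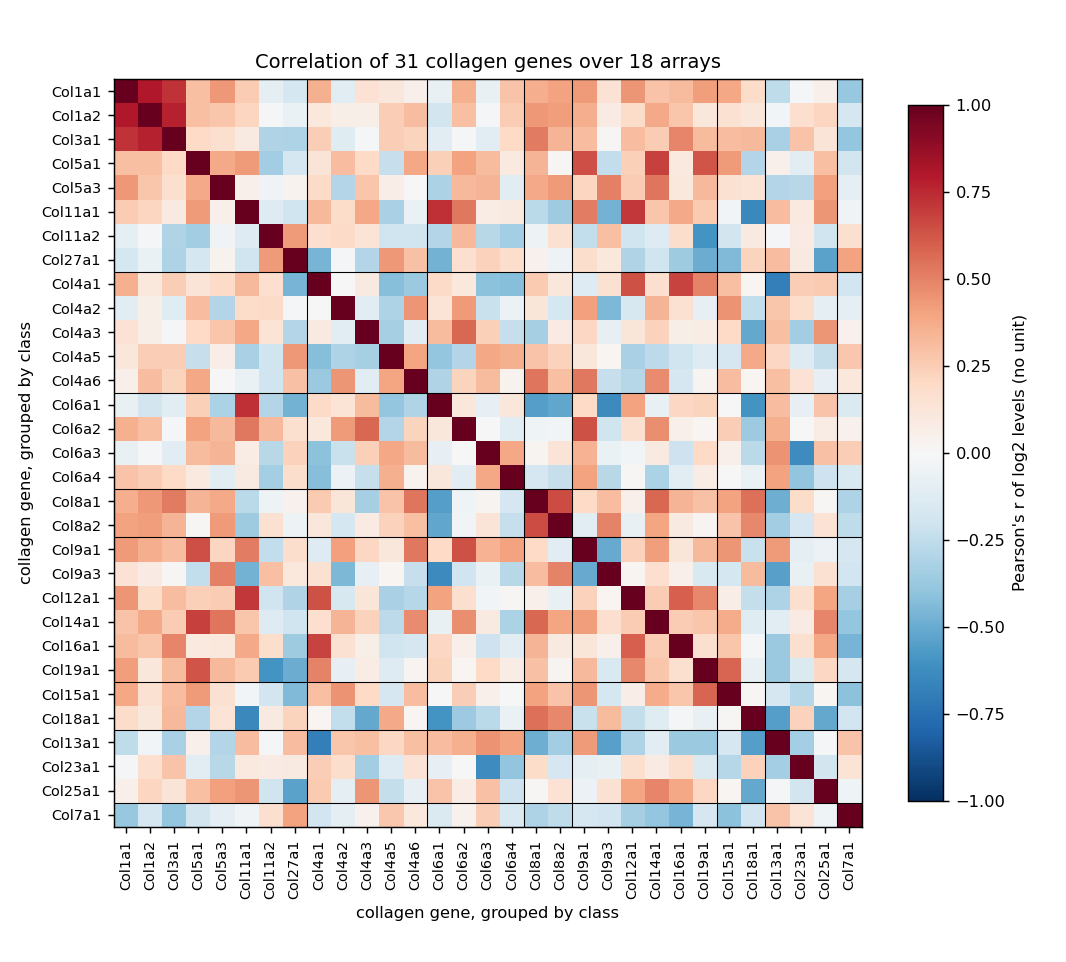
Pearson's r over 18 arrays between the log2 levels of the 31 tested collagen genes, ordered by class. The warm block of Col1a1, Col1a2 and Col3a1 holds r of 0.72 to 0.80, whereas most other cells are pale, with a median of 0.10 over 465 pairs.

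Col1a1 was the gene most like Col1a2 of the 13069 others tested, with r = 0.80 (permutation p = 4e-05, adjusted p = 0.457) and Spearman's rho = 0.73 (permutation p = 0.00108). The r was 0.93 within wild type, 0.75 within ERalphaKO-labelled and 0.84 within ERbetaKO-labelled arrays. It was 0.79 without the 2 arrays farthest from the Col1a2 median and 0.69 without the 2 farthest from the Col1a1 median. Another Col1a2 probe set as the index gave 0.84. Col3a1 came second, with r = 0.77 (permutation p = 0.00246, adjusted p = 0.980) and rho = 0.42 (permutation p = 0.0824). Within genotypes it was 0.68, -0.29 and 0.91, and it dropped to 0.37 without the 2 farthest arrays, so the Col3a1 relation rests on those arrays. Against Col1a2, 0 of 13069 genes passed after adjustment, 406 (3.11%) had a positive r at an unadjusted p under 0.05, and 2 of the 30 other collagens were among these. The median r of the 30 collagens was 0.20, beside 0.05 for all genes, and 24 were above 0. A negative r at that p was found for 1.36% of all genes and for 0 collagens.

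The closest genes outside the family were Rnf125 and Lum (each r = 0.75), followed by Gpr182, Tmem29, Prox1os, Ttn, Glmp, Lrrc23, Crispld1 and Rpa2. Lum encodes lumican, a proteoglycan that binds collagen fibrils, and is in the leptomeningeal list. Its r was 0.78, 0.82 and 0.77 within the genotypes, its rho 0.68, and its r without the 2 farthest arrays 0.61 (permutation p over all arrays 9e-05, adjusted p = 0.457).

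The 250 bases before the start of Col1a2 and of Col3a1 are shown because these genes moved together with Col1a1 over the arrays. They are from RefSeq on GRCm38.p6, at chr6:4505368-4505617 and chr1:45311288-45311537, both on the plus strand. Capitals mark, on either strand, the CCAAT box with the letters CCAAT. They also mark the TATA box, searched as TATAAA, and the GC box, searched as GGGCGG. No match of one motif overlaps another here.
Col1a2: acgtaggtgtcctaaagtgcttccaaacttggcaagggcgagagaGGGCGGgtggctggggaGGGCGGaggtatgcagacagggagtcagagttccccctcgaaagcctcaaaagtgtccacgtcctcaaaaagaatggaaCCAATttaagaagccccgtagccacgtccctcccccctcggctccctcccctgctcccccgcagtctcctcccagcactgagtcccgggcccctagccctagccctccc
Col3a1: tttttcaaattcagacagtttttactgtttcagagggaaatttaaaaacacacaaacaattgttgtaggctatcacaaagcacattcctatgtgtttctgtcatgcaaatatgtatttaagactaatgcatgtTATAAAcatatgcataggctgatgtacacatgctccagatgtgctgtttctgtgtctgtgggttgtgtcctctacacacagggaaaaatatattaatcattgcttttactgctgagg
The Col1a2 window holds 1 CCAAT match and 2 GC boxes and is 62% G and C, and the Col3a1 window holds 1 TATA match and is 35.2% G and C. The windows thus share none of these motifs. Of 32851 RefSeq promoter windows of this length 33.8% hold CCAAT, 12.4% the TATA box and 32.7% the GC box. Of the 42 collagen genes 33 matched the table, with 36 windows, and 13, 5 and 21 of these held the 3 motifs. A match is a run of letters and not a shown site.

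Chains that assemble with each other were compared as pairs, 11 in all. Besides Col1a1 and Col1a2, the pair that moved together was Col8a1 and Col8a2, the short chains of endothelial and corneal sheets, with r = 0.65 (permutation p = 0.00337, adjusted p = 0.0185 over the 11 pairs) and rho = 0.51 (permutation p = 0.0323). Its r was 0.83, 0.78 and -0.04 within wild type, ERalphaKO- and ERbetaKO-labelled arrays and 0.61 without the 2 farthest arrays. Col9a1 and Col9a3 had a negative r over all arrays, at -0.51 (permutation p = 0.0309, adjusted p = 0.113), and rho = -0.51. Within the same genotypes their r was -0.52, -0.22 and 0.17, and without the 2 farthest arrays -0.36. Col6a1 and Col6a2, the chains with the highest signals, gave 0.12 (permutation p = 0.648), and Col6a1 and Col6a3 gave -0.08.

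Col4a1 and Col4a2, which form the common collagen IV molecule in a fixed ratio, had a correlation near 0 in these arrays. Their r was -0.01 (permutation p = 0.977) and rho -0.16. Within the genotypes it was 0.45, 0.20 and 0.23, and without the 2 farthest arrays 0.21. Col4a1 had 819 ± 126, 905 ± 55.8 and 755 ± 86.7 in wild type, ERalphaKO- and ERbetaKO-labelled arrays, and Col4a2 683 ± 130, 561 ± 54.2 and 658 ± 106. On these probe sets Col4a1 was thus highest and Col4a2 lowest by mean under the ERalphaKO label. Another Col4a1 probe set, with a mean signal of 713, did not have this order. It gave log2 differences of 0.006 for ERalphaKO-labelled against wild type and -0.05 against ERbetaKO-labelled arrays. The Col4a1 values and correlations above use only the probe set with the highest mean.

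The start regions of these collagen IV pairs are shown because each pair is transcribed head to head from neighbouring starts. On GRCm38.p6 the RefSeq starts of Col4a1 (minus strand) and Col4a2 (plus strand) lie 21 bases apart at chr8:11312805-11312826, and their transcripts overlap there. These 22 bases are given on the plus strand, with capitals as above, and hold 1 GC box.
Col4a1 to Col4a2: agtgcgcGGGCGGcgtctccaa
Col4a5 and Col4a6, the X-linked pair of kidney and epithelial basement membranes, start 1343 bases apart. The 250 bases before each start are at chrX:141475169-141475418 on the plus strand and chrX:141474077-141474326 on the minus strand, with capitals as above.
Col4a5: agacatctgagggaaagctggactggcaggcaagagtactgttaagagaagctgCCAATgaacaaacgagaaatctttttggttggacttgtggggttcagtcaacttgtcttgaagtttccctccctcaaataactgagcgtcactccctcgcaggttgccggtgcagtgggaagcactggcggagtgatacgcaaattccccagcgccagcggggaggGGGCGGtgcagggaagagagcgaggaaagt
Col4a6: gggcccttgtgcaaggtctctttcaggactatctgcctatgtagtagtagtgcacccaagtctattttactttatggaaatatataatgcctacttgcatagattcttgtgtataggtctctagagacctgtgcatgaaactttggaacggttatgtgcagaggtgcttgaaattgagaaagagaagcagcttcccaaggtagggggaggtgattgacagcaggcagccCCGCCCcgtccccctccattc
The Col4a5 window holds 1 CCAAT match and 1 GC box, and the Col4a6 window 1 GC box. Over the 18 arrays the levels of Col4a5 and Col4a6 had an r of 0.40 (permutation p = 0.104), so neither head-to-head pair passed.

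With Col4a1 as the index, 0 of 13069 genes passed after adjustment. At an unadjusted p under 0.05, 1006 genes (7.7%) had a positive and 1105 (8.46%) a negative r, and 3 and 2 of the 30 other collagens. The positive ones were Col16a1 (r = 0.68, rho = 0.55, permutation p = 0.0021, adjusted p = 0.141), Col12a1 (0.64) and Col19a1 (0.49). Col13a1 ran opposite to it at r = -0.68 (rho = -0.84, permutation p = 0.00175, adjusted p = 0.136), as did Col27a1 at -0.47. Another Col4a1 probe set as the index gave 153 positive and 57 negative genes at that unadjusted p, with 3 and 0 of the collagens. The genes closest to Col4a1 outside the family were Ppp1r12c (0.86, adjusted p = 0.0653), Zfyve16, Arhgap29, Sez6l, Bcas3, Tmem100, Sobp, Usp20, Utp25 and Bod1l.

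**Figure D5:**
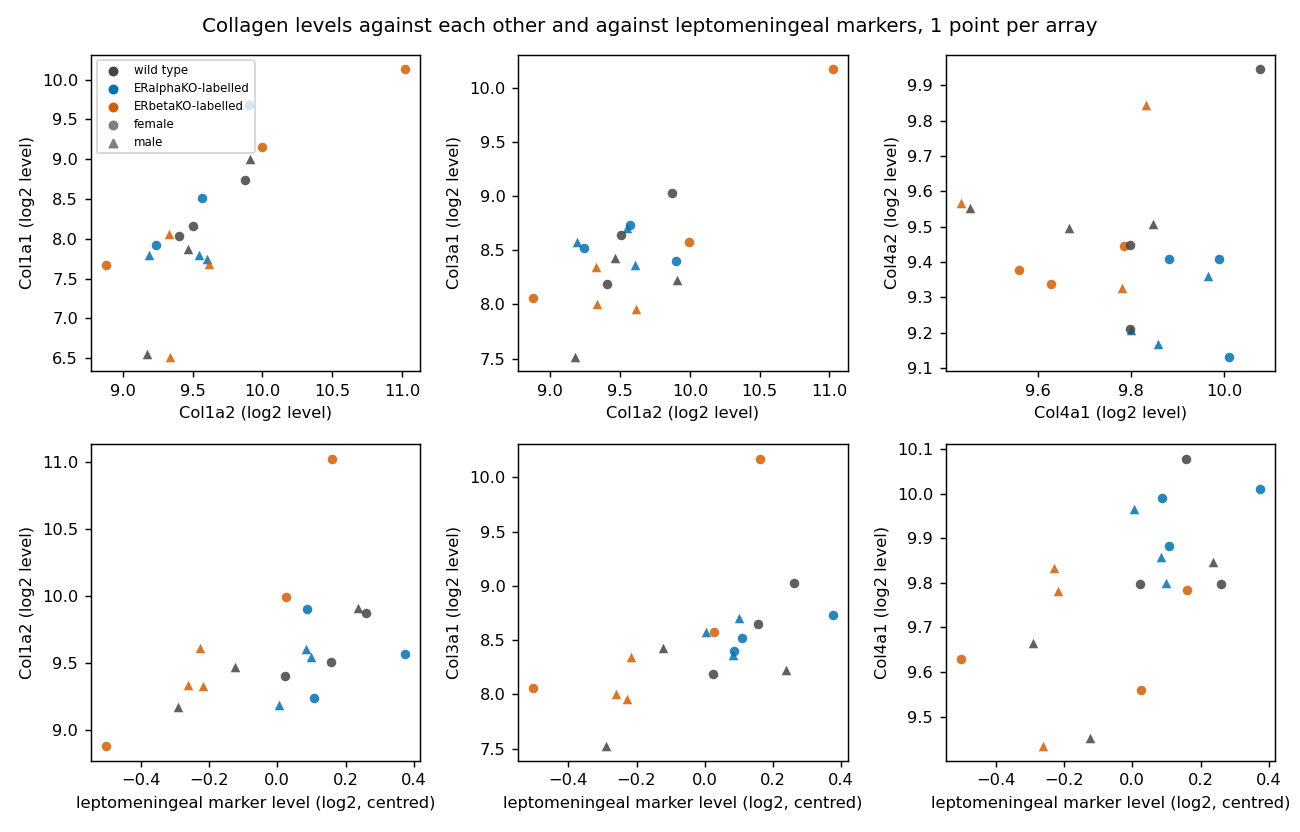
Levels on each of the 18 arrays, coloured by genotype: Col1a1 and Col3a1 against Col1a2, Col4a2 against Col4a1, and Col1a2, Col3a1 and Col4a1 against the leptomeningeal marker level, all in log2 units. Col1a1 follows Col1a2 at r = 0.80, whereas Col4a2 shows no trend with Col4a1 at r = -0.01.

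The collagens were also set against the leptomeningeal marker level, the mean centred log2 level of the 25 markers on each array, none of them a collagen. Its mean was 0.04 ± 0.22 (SD, n = 6) on wild type arrays, 0.13 ± 0.13 under the ERalphaKO label and -0.17 ± 0.23 under the ERbetaKO label. Genes with known fibroblast or matrix products headed the list over all arrays: Pcolce (r = 0.89), which aids the trimming of procollagen, Serpinf1 (0.88) and Fbln1 (0.86), each with an adjusted p of 0.0326 by permutation. Of all genes tested 0.0307% passed with a positive r and 0.0153% with a negative one, and 0 of the 31 collagens did in either direction. At an unadjusted p under 0.05, 7 of 31 collagens had a positive r, beside 8.19% of all genes, and 1 a negative r (Col13a1, -0.61), beside 6.76%. The count of positive ones is thus above the background share, without any single member passing the adjustment.

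Those 7 were Col1a1 (r = 0.60, rho = 0.74), Col4a1 (0.60), Col3a1 (0.59, rho = 0.77), Col8a1 (0.54), Col1a2 (0.54), Col8a2 (0.50) and Col23a1 (0.47), with adjusted p from 0.206 by permutation. Within wild type, ERalphaKO- and ERbetaKO-labelled arrays Col1a1 had 0.94, 0.21 and 0.81, Col3a1 0.77, 0.55 and 0.81, and Col1a2 0.89, 0.23 and 0.95. For these 3 genes r was lowest under the ERalphaKO label, where the marker level itself also varied least, and the difference was not tested. Without the 2 farthest arrays the values were 0.56 for Col1a1, 0.51 for Col3a1, 0.57 for Col4a1, 0.36 for Col1a2 and 0.33 for Col8a1. The median r of the 31 collagens was 0.09, beside 0.01 for all genes. Taken as deviations from the 6 group means, the medians were 0.32 and 0.06, and Col1a2 had 0.82. In that form 0 of 13045 genes passed after adjustment, Pcolce, Serpinf1 and Fbln1 included, though fewer permutations are possible within groups. The p-values over all arrays came from permutations across genotypes, so differences between the groups enter them.

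In the slopes on the marker level within groups, the chains of collagen I and III led. Col1a2 had a slope of 2.07 ± 0.40 log2 units per unit of marker level (limma unadjusted p = 9.5e-05, adjusted p = 0.113), Col1a1 3.21 ± 0.79 (adjusted p = 0.325), Col3a1 1.97 ± 0.49 (adjusted p = 0.339), Col8a1 1.19 ± 0.34 (adjusted p = 0.436) and Col4a6 1.17 ± 0.37 (adjusted p = 0.458). The other fibrillar chains tested had slopes from 0.02 (Col11a1) to 0.32 (Col5a1), beside a median of 0.32 for all tested collagens. Col6a1, the chain with the highest signal, had -1.04. Col4a1, which had one of the highest r values over all arrays, had a slope of only 0.24 ± 0.22, and Col4a2 0.01 ± 0.29. A slope above 1 means that the gene spans more log2 units than the averaged markers. None of the 31 collagens passed (limma), as did 0.00767% of 13045 genes, and 5 of 31 had an unadjusted p under 0.05, beside 9.28% of all genes. Without ERalphaKO female replicate 2 both Col1a1 and Col1a2 passed, with slopes of 3.65 and 2.25 (limma adjusted p = 0.0236 for each). The share of collagen RNA that came with attached meninges was not measured, as no array of separated meninges was analysed here.

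The genes that make, trim, bind and break down collagen were counted over lists of 11 to 23 genes. Of 19 tested genes of folding and modification 0 rose and 1 fell in ERalphaKO-labelled brains, and 0 rose and 2 fell in ERbetaKO-labelled brains. For these and the lists below, the shares over all genes given above (3.63% and 4.61% lower, 3.08% and 2.9% higher) are the background, so counts of 0 to 2 are few either way. Creb3l1, a transcription factor that drives collagen secretion genes, had 273 ± 72.4 in ERalphaKO-labelled arrays against 422 ± 32.03 in wild type (limma log2 difference -0.55, adjusted p = 0.0127). Plod3, a lysyl hydroxylase that also adds sugars to collagen, had 1034 ± 105 in ERbetaKO-labelled arrays against 1322 ± 104 (limma adjusted p = 0.00693). P3h4, a partner of the prolyl 3-hydroxylases, had 242 ± 30.3 against 379 ± 27.7 (log2 difference -0.54, limma adjusted p = 0.00361). In both of the latter the 6 ERbetaKO-labelled values lay wholly below the wild type values, as in 2.44% of all genes tested.

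Among 11 tested genes of trimming and crosslinking, 0 passed in ERalphaKO-labelled brains and 1 fell in ERbetaKO-labelled brains. It was Sparc, a collagen-binding protein that is also abundant in glia, at 2961 ± 1317 against 5993 ± 963 (limma log2 difference -1.10, adjusted p = 0.0284). Of 10 tested proteases and inhibitors, 1 rose in ERbetaKO-labelled brains. Ctsk, the collagen-cleaving cathepsin of osteoclasts, had 357 ± 54.4 against 205 ± 29.0 (limma log2 difference 0.64, adjusted p = 0.00271). Of 8 tested receptors, 1 fell in ERbetaKO-labelled brains. Adgrg1, the receptor for collagen III in the developing cortex, had 683 ± 76.2 against 1010 ± 125 (limma log2 difference -0.52, adjusted p = 0.00539). Its groups did not overlap, as in 2.44% of all genes tested in that direction. Its ligand chain Col3a1 did not pass in that comparison.

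Between the knockout labels the same lists gave 1 higher and 1 lower gene of folding and modification (P3h4 and Creb3l1), 1 and 1 of trimming and crosslinking (Tgm2 and Loxl3), 1 and 2 of breakdown and its inhibitors (Timp3 against Ctsk and Mmp2) and 2 and 0 receptors (Adgrg1 and Ddr1), beside 6.31% of all genes higher and 9.1% lower. Of 11 tested basement membrane partners of collagen IV, 0 were higher and 2 lower. Hspg2, the basement membrane proteoglycan perlecan, had 1270 ± 44.5 in ERalphaKO- against 1811 ± 366 in ERbetaKO-labelled arrays (limma log2 difference -0.47, adjusted p = 0.0170). Its groups did not overlap, as in 3.57% of all genes tested in that direction. Lama3, a laminin chain of epithelia, gave -0.47 (limma adjusted p = 0.0205). In the folding, trimming and breakdown lists the genes past the threshold thus lay on both sides. The lists held only 8 to 19 tested genes, so their shares are imprecise beside those of all genes.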

How the data were processed

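The authors deposited linear probe set intensities of 18 Affymetrix Mouse 430 2.0 arrays. MAS5 is named per the submitters' processing notes, and its version is not given in the sources used here. Each column had been scaled so that its 2% trimmed mean was 500. The table holds no detection calls. Control probe sets (64 of 45101) were left out of the tests. Platform symbols were updated through RefSeq (GRCm38.p6).

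Intensities were transformed as log2(signal + 63.63), the 25th percentile of all values, which understates the change of weak genes. Genes at or above the 40th percentile, a log2 level of 7.58, entered a limma 3.58.1 fit (R 4.3.3) of 6 group means with an intensity trend and 12 residual degrees of freedom, with Benjamini-Hochberg adjustment over all 13070 genes. Genotype contrasts average both sexes. Correlations used 100000 permutations of arrays (Python 3.11.15, numpy 2.4.6, scipy 1.17.1). Marker lists were compared by exact permutation, two-sided, with 6 arrays a side. Scripts were tested on simulated data. The number of arrays limits precision.

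The members, gene lists and naming rule were chosen with earlier results of these data known. The rule named every collagen gene past 0.05, the 10 with the highest signal, 14 chains always, the 3 largest differences each way per comparison, up to 4 genes per pathway list and comparison, and the 10 genes most like Col1a2 and Col4a1. Deviations of same-numbered samples from their group means correlated at a median of 0.02, from -0.49 to 0.49 (15 of 45 pairs above 0.1). No block was therefore used in the main fits. A median near 0 cannot exclude a factor shared by some of the same-numbered samples.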

Additional observations from a re-analysis of the deposited data

Results flagged for a closer look

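In 4 of 96 groups of 6 arrays tested (each of the 31 collagen genes at or above the filter and the leptomeningeal level, within each genotype), the highest or lowest array stood apart from the other 5 by a gap, as a share of the group's range, above the 95% critical value of Dixon's test. Gaps were taken on the log2 scale, and the 11 weaker collagen genes were not examined. Chance gives about 1 in 20. Col3a1 was 1089 on ERbetaKO female replicate 2, whereas the other ERbetaKO-labelled arrays had 185 to 317. Col6a2 was 714 on ERbetaKO female replicate 3, whereas the others had 964 to 1082. Col13a1 was 243.5 on ERbetaKO male replicate 3, whereas the others had 130.4 to 166. The leptomeningeal marker level was 0.38 on ERalphaKO female replicate 3, whereas the other ERalphaKO-labelled arrays had 0.0049 to 0.11.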

How the results depend on the processing

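In ERalphaKO-labelled against wild type brains the count of 2 collagen genes became 1 with the pseudocount at the median signal, quantile normalization, median scaling or the leptomeningeal covariate. It became 0 without the filter, with a 60th percentile filter, with the replicate block, with the Actb ratio as a covariate and among the arrays with strong Pcp2, and 3 with the cerebellar covariate, which added Col19a1. With only the compared groups in the fit it stayed 2, with Col19a1 (higher) in place of Col13a1. In ERbetaKO-labelled against wild type brains the count of 1 became 3 with array weights or with every probe set tested, and 0 with the Actb ratio. It stayed 1 but for another gene with the 60th percentile filter (Col19a1, higher) and with the strong Pcp2 arrays (Col9a3, -1.75, limma adjusted p = 0.00664, read from another probe set). Between the knockout labels the count of 5 became 7 with array weights or every probe set and 6 with the cerebellar covariate. With every probe set the 2 added genes, Col4a5 and Col23a1, were higher, each from a probe set other than the chosen one. The count became 2 with the 60th percentile filter or the strong Pcp2 arrays, 3 with the leptomeningeal covariate and 1 with the Actb ratio. The 60th percentile filter tests only 17 collagen genes and leaves out Col11a2, Col13a1 and Col6a4. The replicate block, which pairs arrays that share only a number, gave 0, 1 and 4 calls in the 3 comparisons. Leaving out 1 array in turn gave 0 to 2, 1 to 3 and 2 to 5 calls, 0 to 2 for the slope and 0 to 1 for the interaction. No called value changed sign. The cause of these shifts was not tested. The strong Pcp2 arrays and the other probe sets were chosen after seeing the data. With 6 arrays per genotype and no detection calls, weak chains near background cannot be resolved.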
